A study of Homo sapiens with 6 samples.

Results

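The human genes for potassium channels carry symbols that start with KCN. A gene was taken as a member if its symbol is KCN, 1 or more further letters and a final number, and 93 of the 57820 genes in the deposited tables met this rule. The rule reads only the symbol and uses no measured value. It leaves out antisense and intronic transcripts such as KCNQ1OT1, and it leaves out channel partners with other names, which are described separately below.

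The samples were AID-DivA cells, a derivative of the human osteosarcoma line U2OS that carries an inducible AsiSI restriction enzyme for making DNA double-strand breaks at known sites. All 6 samples carried this construct and were untreated, and RNA-seq covered 3 WT and 3 ARID1A-KO samples, each numbered 3 to 5. ARID1A is the DNA-binding subunit of the BAF (SWI/SNF) chromatin remodelling complex, and it was disrupted with a pair of CRISPR guides. The knockout was established as clones, and which of them gave the RNA is not given in the sources used here. The 3 knockout samples may stem from 1 clone, and loss of ARID1A cannot be told apart from a difference between clones. The labels do not say that samples of a genotype came from separate cultures, so p-values measure only the spread between these samples. In bulk RNA of this kind, fewer cells that express a gene and less of its RNA per cell cannot be told apart.

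Potassium channels let potassium ions leave or enter the cell along their gradient, and this current sets the resting membrane potential, ends action potentials and takes part in volume control and in the cell cycle. Voltage-gated channels are tetramers that open on depolarization, and some of their subunits are silent alone and change the properties of others. Calcium- or sodium-activated channels couple the membrane to ions inside the cell, inward rectifiers hold the membrane near rest, and 2-pore-domain channels carry background leak currents. Auxiliary subunits form no pore and alter trafficking or gating. U2OS comes from a bone tumour, whereas many of the members are best known from neurons and muscle.

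All pore-forming members share the selectivity filter, a loop in which the backbone of a glycine-tyrosine-glycine or glycine-phenylalanine-glycine stretch strips potassium ions of water. In the canonical coding sequences of GENCODE v44 built on GRCh37, an in-frame GGNTANGGN (glycine, tyrosine, glycine) or GGNTTNGGN (glycine, phenylalanine or leucine, glycine) was present in 78 of 78 pore-forming members and in 0 of 15 auxiliary members. Only the coding strand was searched, and no position can start both motifs. Either motif was present in 17.2% of all 20274 canonical coding sequences, and GGNTANGGN in 6.52% of them and in 63 of the pore-forming members. The stretches below, each of 45 bases from 5′ to 3′ on the coding strand of GRCh37, show the filter codons in capitals. They are from some of the voltage-gated, calcium- or sodium-activated and inward rectifier members that differed between the genotypes. All lie inside a coding exon of the canonical transcript, whose number is given.

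The first 4 belong to members with higher counts in ARID1A-KO, namely voltage-gated KCNH1 and KCNF1, the sodium-activated KCNT1 and the inward rectifier KCNJ11.
KCNH1 (chr1:211093025-211093069, minus strand, exon 7): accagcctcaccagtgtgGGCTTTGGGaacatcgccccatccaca
KCNF1 (chr2:11053648-11053692, plus strand, exon 1): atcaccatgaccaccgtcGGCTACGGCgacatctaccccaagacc
KCNT1 (chr9:138651598-138651642, plus strand, exon 11): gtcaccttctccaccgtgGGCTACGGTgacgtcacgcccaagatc
KCNJ11 (chr11:17409219-17409263, minus strand, exon 1): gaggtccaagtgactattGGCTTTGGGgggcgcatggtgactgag
The next 4 belong to members with lower counts in ARID1A-KO, namely voltage-gated KCNA10 and KCNA1, the inward rectifier KCNJ2 and the calcium-activated KCNN4.
KCNA10 (chr1:111060117-111060161, minus strand, exon 1): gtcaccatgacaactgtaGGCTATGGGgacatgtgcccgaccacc
KCNA1 (chr12:5021646-5021690, plus strand, exon 2): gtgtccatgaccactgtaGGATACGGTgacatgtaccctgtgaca
KCNJ2 (chr17:68171592-68171636, plus strand, exon 2): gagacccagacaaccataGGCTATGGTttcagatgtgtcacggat
KCNN4 (chr19:44276191-44276235, minus strand, exon 4): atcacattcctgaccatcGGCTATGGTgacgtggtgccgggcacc
KCNH1 and KCNJ11 match GGNTTNGGN and the other 6 match GGNTANGGN. This split follows from the stretches printed, since KCNK2 and KCNU1, which were lower, match only GGNTTNGGN. Both kinds of filter are therefore found among the higher and among the lower members.

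The gene counts used here, from the strand of the gene, came to between 54512105 and 84088708 per sample. ARID1A, the targeted gene, was at 166, 178 and 177 CPM in WT and 25.1, 27.5 and 25.2 CPM in ARID1A-KO (replicates 3, 4 and 5 in this order, as in all values below), which gave a log2 difference of -2.74 (SE 0.07, adjusted p = 9.66e-08). CPM are gene counts scaled to a common library total after TMM normalization, and a log2 difference is that of ARID1A-KO against WT in the fitted model, also called a log2 fold change. A signed value after "higher at", "lower at" or "not called at" is this quantity. The labels call the cells osteosarcoma, and of 10 osteoblast lineage markers 7 could be tested, with ALPL, SPP1, SPARC and COL1A1 lower and RUNX2 and COL1A2 not called, while SP7, IBSP and BGLAP had too few counts. The summed level of these markers was 221.5 to 230.0 CPM per kb of exon in WT and 126.9 to 132.0 in ARID1A-KO.

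Of the 93 members, 66 had enough counts to be tested by the quasi-likelihood test of edgeR, with p-values adjusted by Benjamini-Hochberg over all 19599 genes tested. At an adjusted p under 0.05, 23 members were higher in ARID1A-KO and 17 were lower, which is 60.6% of those tested beside 36.2% of all genes tested. The higher members made up 34.8% of those tested beside 17.8% of all genes, and the lower members 25.8% beside 18.4%. At a change of 2-fold or more, 13 members were higher (19.7% beside 4.86% of all genes) and 12 were lower (18.2% beside 5.92%). The samples of the 2 genotypes did not overlap for 45 members, or 68.2% of those tested beside 49.5% of all genes. Members moved in both directions. Their median log2 fold change was 0.13 beside 0.0066 over all genes, while their median absolute log2 fold change was 0.92 beside 0.27 over all genes.

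Most members were expressed at a low level. Among genes under 1 CPM per kb, 29 of 48 members were called (60.4%) beside 32.8% of the 6753 genes at that level, and the median absolute log2 fold change was 1.02 for these members and 0.47 for these genes. At 1 CPM per kb or more, 11 of 18 members were called (61.1%) beside 38.0% of genes, with median absolute log2 fold changes of 0.60 and 0.20. These shares describe the members beside other genes of like level, and no test of the list was made.

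**Figure D1:**
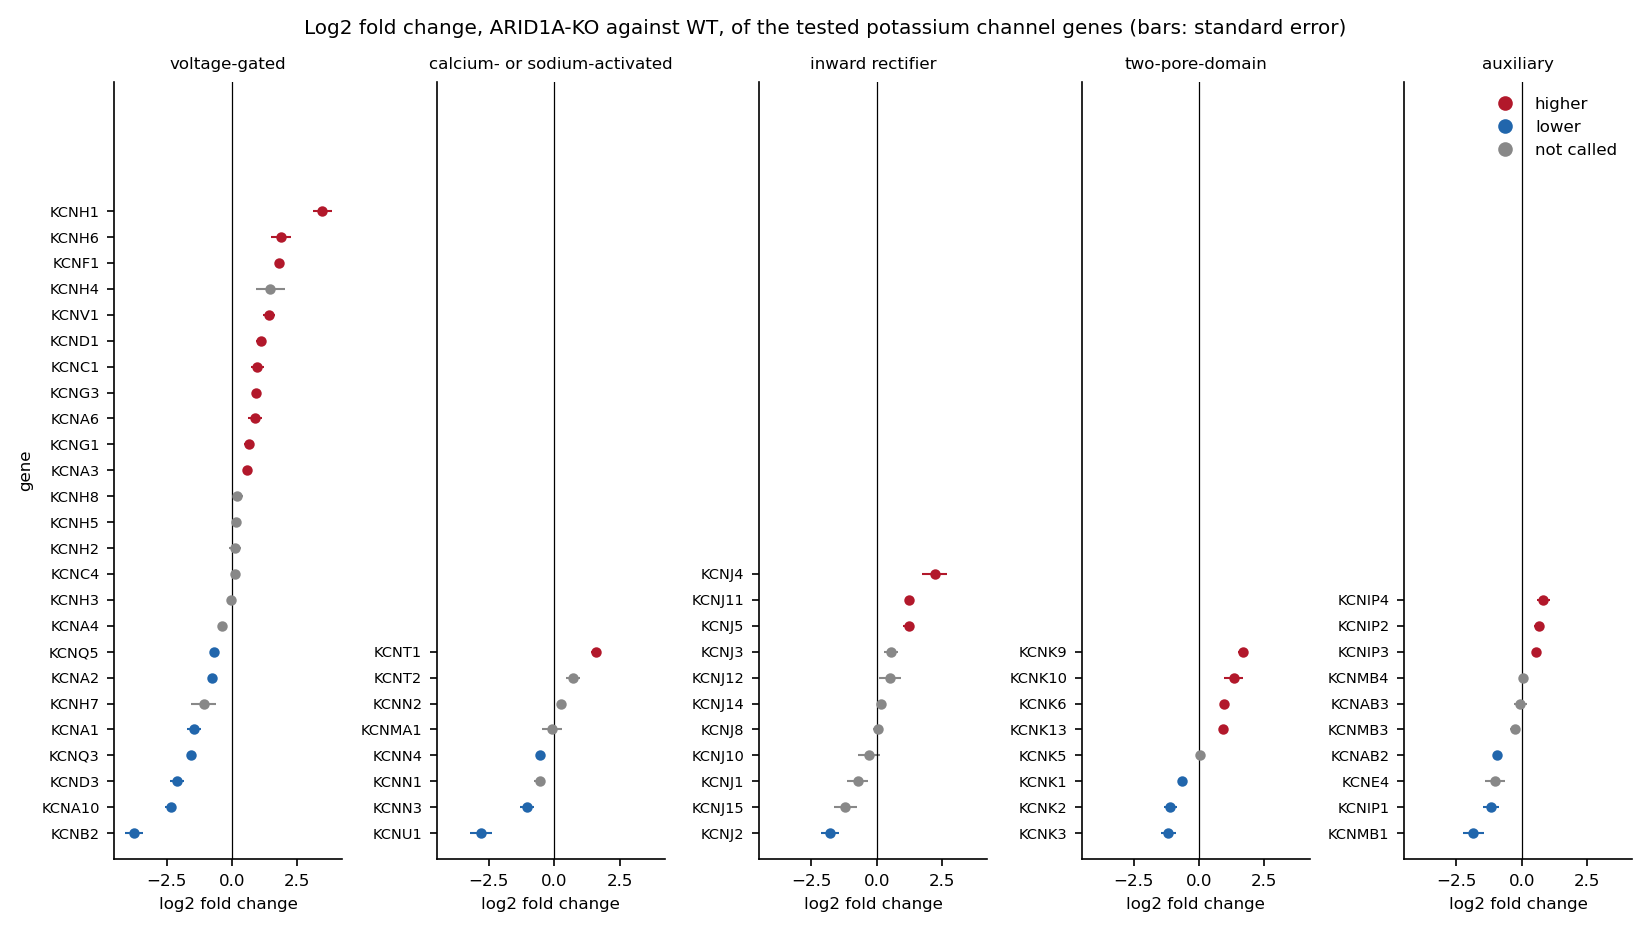
Log2 fold change of ARID1A-KO against WT for 62 of the 66 tested members, in 1 panel for each class, with bars for the standard error and colours for higher, lower and not called. The values run from -3.74 for KCNB2 to 3.47 for KCNH1, and each class holds both higher and lower members.

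The remaining 27 members were not tested, and none of them had more than 19 counts in any sample. For KCNG4, KCNJ13, KCNK15, KCNK16, KCNMB2, KCNS2 and KCNV2, all 6 samples had 0 counts on the strand of the gene. The other 20 were KCNA5, KCNA7, KCNC2, KCND2, KCNG2, KCNQ1, KCNS1 and KCNS3 of the voltage-gated class, KCNJ6, KCNJ9 and KCNJ16 of the inward rectifiers, KCNK4, KCNK7, KCNK12, KCNK17 and KCNK18 of the 2-pore-domain class, and the auxiliary KCNAB1, KCNE1, KCNE2 and KCNE3. At this depth such counts give little power to show a difference, and they do not show that the genes are silent.

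Among the 40 voltage-gated members, 29 were tested, 12 were higher, 7 were lower and 10 were not called. The called share was 65.5% of those tested, beside 36.2% of all genes tested. The largest rise was that of KCNH1, an ether-a-go-go channel that is normally most abundant in brain and is also found in many tumour lines. KCNH1 (ENSG00000143473.7, chr1:210856555-211307457 in GRCh37, minus strand) had 3, 6 and 9 counts in WT and 76, 66 and 74 in ARID1A-KO. In CPM this was 0.045, 0.0845 and 0.155 CPM in WT and 1.12, 1.2 and 0.841 CPM in ARID1A-KO, with no overlap between the genotypes and a log2 difference of 3.47 (SE 0.35, adjusted p = 9.55e-05). Counts of both strands together gave a smaller log2 fold change of 2.23, and 26.2% of the stranded counts at KCNH1 lay on the opposite strand, where they were at 0.176 CPM ± 0.056 in WT and 0.226 CPM ± 0.011 in ARID1A-KO (SD, n = 3). KCNH6, a channel of the erg group in the same subfamily, was at 0.0749, 0.155 and 0.0687 CPM in WT and 0.294, 0.328 and 0.5 CPM in ARID1A-KO and had a log2 difference of 1.89 (SE 0.40, adjusted p = 0.00535). Both genes started from a few counts per WT sample, and the 6 other members of this subfamily were not called, with log2 fold changes from -1.08 for KCNH7 to 1.48 for KCNH4. KCNH4 was close to the threshold (adjusted p = 0.0589) and passed it without WT replicate 3 (log2 fold change 2.33, adjusted p = 0.0224) or without ARID1A-KO replicate 5 (adjusted p = 0.0495). KCNH7 passed it without WT replicate 4 (adjusted p = 0.0382) or without ARID1A-KO replicate 5 (log2 fold change -1.59, adjusted p = 0.0405).

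KCNF1, KCNG1, KCNG3 and KCNV1 encode silent subunits, which make no current alone and modify channels of the KCNB subfamily. All 4 tested members of this kind were higher in ARID1A-KO, beside 34.8% of all tested members and 17.8% of all genes tested. KCNG2, KCNG4 and KCNV2 of the same subfamilies were not tested, and no test of this small group was made. KCNF1 (ENSG00000162975.3, chr2:11052063-11054350 in GRCh37, plus strand) was at 2.16, 1.63 and 2.06 CPM in WT and 6.76, 7.53 and 6.04 CPM in ARID1A-KO, so that every ARID1A-KO sample was above every WT sample, with a log2 difference of 1.80 (SE 0.15, adjusted p = 3.61e-05). KCNV1 was at 0.719, 0.634 and 0.705 CPM in WT and 1.41, 1.75 and 2.33 CPM in ARID1A-KO, again without overlap, with a log2 difference of 1.42 (SE 0.22, adjusted p = 0.00098). KCNG3 had a log2 fold change of 0.93 (adjusted p = 0.000791) and KCNG1 had 0.65 (adjusted p = 0.0118), and KCNG1 missed the threshold without WT replicate 5 (adjusted p = 0.0509). Of the pore-forming genes that these subunits join, KCNB2 fell. KCNB2, a delayed rectifier, was at 3.58, 9.3 and 5.96 CPM in WT and 0.499, 0.564 and 0.364 CPM in ARID1A-KO, which gave a log2 difference of -3.74 (SE 0.36, adjusted p = 6.85e-05), the largest fall among the members. The 3 WT samples of KCNB2 were spread from 3.58 to 9.30 CPM, but the lowest of them was still far above the highest ARID1A-KO sample.

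KCNQ3 and KCNQ5 encode subunits of the channels of the M-current, a slow current of neurons that restrains repetitive firing, and both were lower. KCNQ3 was at 123, 113 and 131 CPM in WT and 39.9, 38.7 and 46.8 CPM in ARID1A-KO, with a log2 difference of -1.55 (SE 0.09, adjusted p = 3.83e-06), the smallest adjusted p of any member. KCNQ5 was at 58, 70.9 and 66.3 CPM in WT and 42.5, 42.3 and 35.6 CPM in ARID1A-KO, also without overlap, with a log2 difference of -0.70 (SE 0.10, adjusted p = 0.000514). In levels per length, KCNQ3 and KCNQ5 stood at 6.59 and 6.92 CPM per kb on average over the 6 samples, while KCNQ1 had 28 counts in all 6 samples together and was not tested.

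The KCNA subfamily of Shaker-type channels was also split. KCNA10 (ENSG00000143105.5, chr1:111059839-111061797 in GRCh37, minus strand) was at 2.35, 1.75 and 2.27 CPM in WT and 0.455, 0.364 and 0.42 CPM in ARID1A-KO, which gave a log2 difference of -2.35 (SE 0.20, adjusted p = 3.32e-05). KCNA1, a channel of axons whose mutations cause episodic ataxia, was at 10.4, 5.13 and 8.78 CPM in WT and 2.48, 2.51 and 3.84 CPM in ARID1A-KO, with a log2 difference of -1.45 (SE 0.27, adjusted p = 0.00269). All ARID1A-KO samples were below all WT samples for both genes. KCNA2 was lower as well, at a log2 fold change of -0.75 (adjusted p = 0.00847), while KCNA3, known from T cells, was higher at 0.58 (adjusted p = 0.0075). KCNA6 was called higher at 0.89 (adjusted p = 0.0311), but it was the 1 called member whose samples overlapped, at 4.59, 10.3 and 7.23 CPM in WT and 15.1, 16.1 and 9.82 CPM in ARID1A-KO. Its call was lost without WT replicate 3 (adjusted p = 0.0778), WT replicate 5 (0.0925), ARID1A-KO replicate 3 (0.0866) or ARID1A-KO replicate 4 (0.101), and DESeq2 gave an adjusted p of 0.0542. KCNA6 also shares its strand and some sequence with GALNT8 (log2 fold change 1.06), so part of its counts cannot be assigned with certainty. KCNA4 was not called, at -0.36 (adjusted p = 0.128).

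Channels of the KCNC subfamily open at high voltage and allow fast firing. KCNC1 was higher at a log2 fold change of 0.97 (adjusted p = 0.0146), a call that was lost without WT replicate 3 (adjusted p = 0.0571) or ARID1A-KO replicate 3 (adjusted p = 0.0531). KCNC4, at a similar level to KCNG1, was not called at 0.12 (adjusted p = 0.329). The KCND genes encode channels of the transient outward current, and their 2 tested members moved apart. KCND1 had a log2 fold change of 1.12 (adjusted p = 0.00145). KCND3, the main gene of this current in heart besides KCND2, was at 4.45, 2.45 and 3.81 CPM in WT and 0.749, 0.655 and 1.06 CPM in ARID1A-KO, which gave a log2 difference of -2.10 (SE 0.26, adjusted p = 0.000304). KCNH2, KCNH3, KCNH5 and KCNH8 had log2 fold changes of 0.14, -0.02, 0.18 and 0.21, none of them called.

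**Figure D2:**
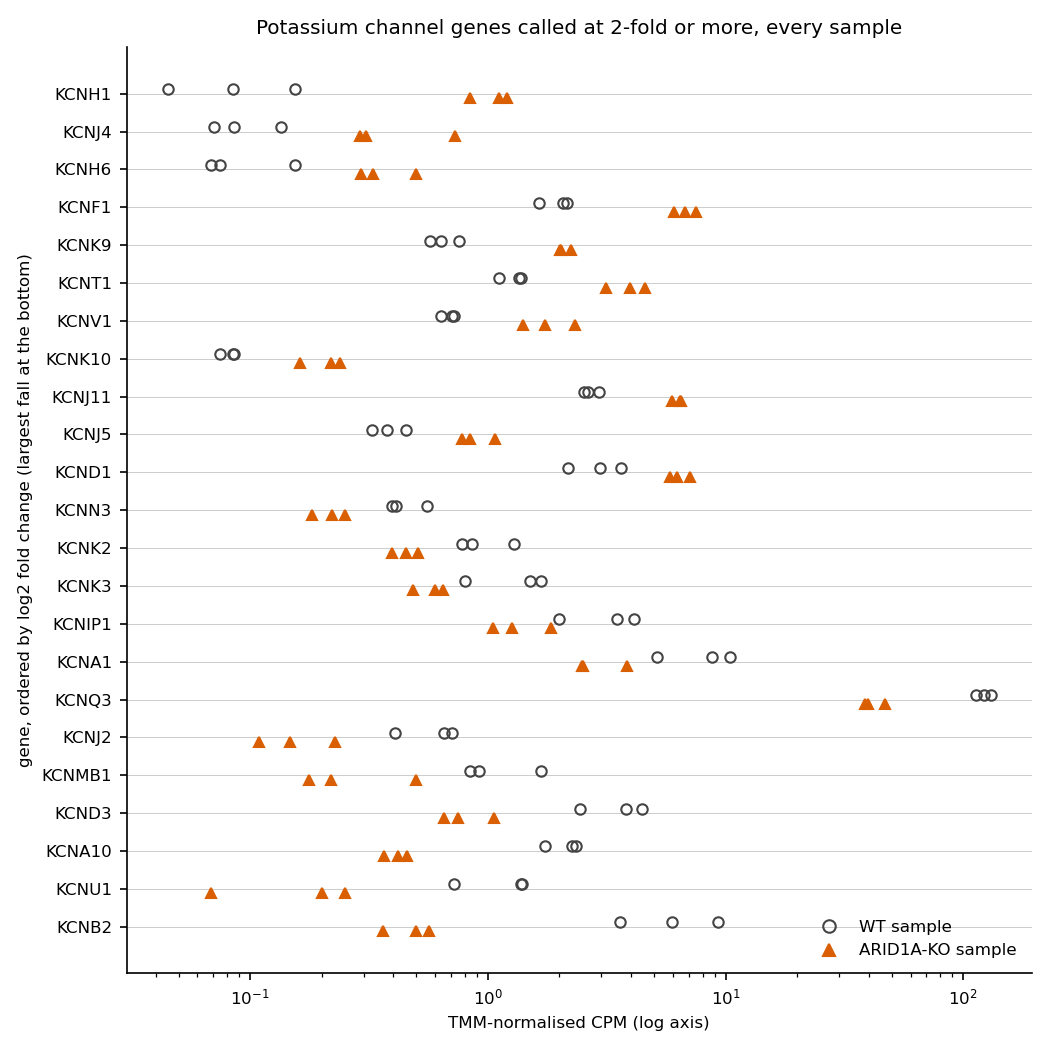
TMM-normalised CPM on a log axis in every sample for 23 members called at 2-fold or more, ordered by log2 fold change from the largest fall at the bottom. Open circles are WT samples and triangles ARID1A-KO samples, and the 2 kinds of symbol do not overlap in any of the 23 lines.

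All 8 calcium- or sodium-activated members, counting KCNU1, a pH- and voltage-gated relative of KCNMA1, were tested, with 1 higher, 3 lower and 4 not called. Thus 50.0% were called, beside 36.2% of all genes tested. KCNN4, the intermediate-conductance calcium-activated channel found in red cells, lymphocytes and many tumours, was the most abundant member at 15.1 CPM per kb, or 16.6% of the summed level of all members. KCNN4 (ENSG00000104783.7, chr19:44270685-44285409 in GRCh37, minus strand) was at 56.1, 52.9 and 68.7 CPM in WT and 38.7, 41.3 and 40.8 CPM in ARID1A-KO, with every ARID1A-KO sample below every WT sample and a log2 difference of -0.56 (SE 0.10, adjusted p = 0.00187). KCNU1, a channel of sperm, was at 0.719, 1.38 and 1.39 CPM in WT and 0.25, 0.2 and 0.0682 CPM in ARID1A-KO, with a log2 difference of -2.80 (SE 0.43, adjusted p = 0.000898). KCNN3, a small-conductance channel, was lower at -1.04 (adjusted p = 0.0151), a call that was lost without WT replicate 3 (adjusted p = 0.0644) or ARID1A-KO replicate 4 (0.0617) and with DESeq2 (0.0666).

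The sodium-activated KCNT1 was the 1 member of this class that rose, at 1.38, 1.35 and 1.12 CPM in WT and 3.13, 3.95 and 4.6 CPM in ARID1A-KO, without overlap and with a log2 difference of 1.60 (SE 0.18, adjusted p = 0.000181). Its relative KCNT2 was not called, at 0.72 (adjusted p = 0.0513), and passed the threshold without WT replicate 3 (adjusted p = 0.0305). KCNMA1, the large-conductance channel that opens with both calcium and voltage, was at 7.28, 18.8 and 10.2 CPM in WT and 13.5, 14.9 and 5.91 CPM in ARID1A-KO. The genotypes overlapped for KCNMA1, with WT replicate 4 the highest sample and ARID1A-KO replicate 5 the lowest, and its log2 fold change was -0.09 (adjusted p = 0.878). KCNN1 had -0.56 (adjusted p = 0.0601) and was called without WT replicate 4 (adjusted p = 0.00451) or ARID1A-KO replicate 5 (0.0340) and with DESeq2 (0.0169), and KCNN2 was not called at 0.27 (adjusted p = 0.148). The summed level of the class was 22.1 ± 2.94 CPM per kb in WT and 15.7 ± 0.62 in ARID1A-KO (SD, n = 3), with no overlap, and KCNN4 made up most of it.

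Of the 15 inward rectifiers, 11 were tested, with 3 higher, 1 lower and 7 not called. Their called share of 36.4% was close to the 36.2% of all genes tested. KCNJ11, the pore of the ATP-sensitive potassium channel, was at 2.53, 2.63 and 2.92 CPM in WT and 5.96, 6.41 and 6.52 CPM in ARID1A-KO, with a log2 difference of 1.22 (SE 0.12, adjusted p = 8.39e-05). ABCC8, which encodes its sulfonylurea receptor and is no member, was higher as well, at a log2 fold change of 1.84 (adjusted p = 0.000871). KCNJ8, the other pore gene of such channels, was not called at 0.03 (adjusted p = 0.91), while its usual partner ABCC9 was lower at -0.68 (adjusted p = 0.00357). Of this complex, the pore and receptor best known from pancreatic beta cells rose, the receptor best known from vessels fell, and its pore was not called. Other tested genes within 5 Mb of KCNJ8 were at -0.43 in the median on the log2 scale, and those near ABCC9, on the same stretch of chromosome 12, at -0.41.

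KCNJ2 and KCNJ4 both encode strong inward rectifiers of the same group and changed in opposite directions. KCNJ2 was at 0.705, 0.409 and 0.653 CPM in WT and 0.147, 0.109 and 0.227 CPM in ARID1A-KO, with a log2 difference of -1.80 (SE 0.34, adjusted p = 0.00308). KCNJ4 was at 0.135, 0.0704 and 0.0859 CPM in WT and 0.308, 0.291 and 0.727 CPM in ARID1A-KO, with a log2 difference of 2.22 (SE 0.48, adjusted p = 0.00613). The ARID1A-KO samples of KCNJ4 did not overlap with WT, although replicate 5 stood apart as the highest and the log2 fold change was 1.61 (adjusted p = 0.0141) without it, and the samples held few counts (9, 5 and 5 counts in WT and 21, 16 and 64 in ARID1A-KO). KCNJ5, a G-protein-gated channel of atrium and adrenal cortex, was higher at 1.22 (adjusted p = 0.00288), and KCNJ3, with which it forms channels, was not called at 0.54 (adjusted p = 0.144).

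The remaining inward rectifiers were not called, with log2 fold changes from -1.21 for KCNJ15 to 0.50 for KCNJ12. KCNJ15 was at 2.58, 11.5 and 4.95 CPM in WT and 2.95, 3.06 and 2.28 CPM in ARID1A-KO, where WT replicate 4 stood far above the other samples, and it had a log2 difference of -1.21 (SE 0.44, adjusted p = 0.0598). Without WT replicate 4 the log2 fold change of KCNJ15 was -0.45 (adjusted p = 0.219), and without WT replicate 3 it was -1.59 (adjusted p = 0.00745). KCNJ1 had -0.72 (adjusted p = 0.193) and was called without ARID1A-KO replicate 5 (log2 fold change -1.46, adjusted p = 0.00683). KCNJ10 and KCNJ14 had -0.30 and 0.18, and without WT replicate 3 KCNJ10 had 0.28 and KCNJ12 had 1.18 (adjusted p = 0.0601). KCNJ14 shares its strand and some sequence with the much more abundant GRWD1, and KCNJ12 has near-identical copies in the genome, so the counts of both are uncertain.

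Of the 15 members of the 2-pore-domain class, 8 were tested and 7 called, 4 higher and 3 lower. This share of 87.5% was the highest among the 5 classes, beside 60.6% of all tested members and 36.2% of all genes tested. It rests on 8 genes, and the classes were not tested against each other. KCNK9 and KCNK3 encode acid-sensitive leak channels of 1 group and moved apart. KCNK9, known from cerebellum and amplified in some tumours, was at 0.57, 0.634 and 0.756 CPM in WT and 2.23, 2 and 2.02 CPM in ARID1A-KO, with a log2 difference of 1.68 (SE 0.17, adjusted p = 0.000103). KCNK3, an oxygen- and acid-sensitive channel of carotid body and pulmonary artery, was at 1.5, 0.803 and 1.67 CPM in WT and 0.485, 0.601 and 0.648 CPM in ARID1A-KO, with a log2 difference of -1.18 (SE 0.29, adjusted p = 0.0105). The genotypes did not overlap for either gene.

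The mechanosensitive, lipid-gated channels KCNK2 and KCNK10 also moved apart. KCNK2 was lower, at a log2 fold change of -1.10 (adjusted p = 0.0075). KCNK10 was at 0.0749, 0.0845 and 0.0859 CPM in WT and 0.162, 0.218 and 0.239 CPM in ARID1A-KO, with a log2 difference of 1.32 (SE 0.36, adjusted p = 0.0178), from only 5, 6 and 5 counts in WT and 11, 12 and 21 in ARID1A-KO. The call of KCNK10 was lost without WT replicate 3 (adjusted p = 0.0660), ARID1A-KO replicate 4 (0.0584) or ARID1A-KO replicate 5 (0.0641), and DESeq2 gave an adjusted p of 0.136.

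The other called members of the class changed by less than 2-fold. KCNK6, a channel of endosomes and lysosomes, was higher at 0.95 (adjusted p = 0.000189) from a mean level of 3.01 CPM per kb. KCNK1 was lower at -0.66 (adjusted p = 0.000535) from 3.17 CPM per kb. KCNK13 was higher at 0.91 (adjusted p = 0.00248). KCNK5, an alkaline-activated channel and the most abundant of the class at 5.58 CPM per kb, was not called, with a log2 difference of 0.03 (SE 0.07, adjusted p = 0.812). The summed level of the class was 12.6 ± 0.40 CPM per kb in WT and 13.8 ± 0.54 in ARID1A-KO (SD, n = 3).

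Of the 15 auxiliary members, 10 were tested, with 3 higher, 3 lower and 4 not called (60.0% called beside 36.2% of all genes tested). The KCNIP genes encode calcium-binding partners of the KCND channels, and all 4 were called, beside 60.6% of all tested members. KCNIP1 was at 3.49, 1.99 and 4.12 CPM in WT and 1.26, 1.06 and 1.85 CPM in ARID1A-KO, without overlap and with a log2 difference of -1.18 (SE 0.29, adjusted p = 0.0117). The other 3 were higher by less than 2-fold, KCNIP2 at 0.66 (adjusted p = 0.0259), KCNIP3 at 0.54 (adjusted p = 0.00495) and KCNIP4 at 0.83 (adjusted p = 0.0301). KCNIP3 kept its call without each of the 6 samples, whereas KCNIP2 lost it without WT replicate 5 (adjusted p = 0.0734), ARID1A-KO replicate 4 (0.0507) or ARID1A-KO replicate 5 (0.0681). KCNIP4 lost it without WT replicate 4 (adjusted p = 0.0784), WT replicate 5 (0.0934), ARID1A-KO replicate 3 (0.0979) or ARID1A-KO replicate 4 (0.0656), with DESeq2 (0.0612) and with unstranded counts (log2 fold change 0.16, adjusted p = 0.494), where 67.8% of its stranded counts lay on the opposite strand.

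KCNMB1, the subunit that tunes the large-conductance channel in smooth muscle, was at 0.839, 0.916 and 1.67 CPM in WT and 0.176, 0.218 and 0.5 CPM in ARID1A-KO, with a log2 difference of -1.86 (SE 0.41, adjusted p = 0.00656). Without ARID1A-KO replicate 5, the highest of its group, the log2 fold change of KCNMB1 was -2.52 (adjusted p = 0.00176). KCNMB1 lies inside KCNIP1 on the opposite strand of chromosome 5, and both fell, while CTB-147C13.1 on the same stretch had a log2 fold change of -2.33. KCNMB3 and KCNMB4 were not called, at -0.26 (adjusted p = 0.289) and 0.03 (adjusted p = 0.886). KCNAB2, a cytoplasmic subunit of the KCNA channels with an oxidoreductase fold, was lower at -0.95 (adjusted p = 0.0017), and KCNAB3 was not called at -0.05 (adjusted p = 0.905). KCNE4, the 1 tested member of its subfamily, had -1.01 (adjusted p = 0.0655) and was called without ARID1A-KO replicate 5 (log2 fold change -1.41, adjusted p = 0.0390).

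Ranked by level per exonic length, KCNN4 (15.1 CPM per kb) stood clear of KCNQ5 (6.92), KCNQ3 (6.59) and KCNH3 (5.83). KCNH3, an ether-a-go-go-like channel best known from forebrain, was at 25.1, 21.8 and 28.2 CPM in WT and 22.4, 26.7 and 25 CPM in ARID1A-KO and was not called. The order differed between genotypes, since the mean level of KCNQ3 was above that of KCNH3 in WT and below it in ARID1A-KO. The summed level of all members was 90.9, 91.5 and 100.5 CPM per kb in WT and 85.8, 90.1 and 86.5 CPM per kb in ARID1A-KO. These sums did not overlap, but the highest ARID1A-KO sample was close to the lowest WT sample. The inward rectifiers summed to 6.59 ± 0.14 and 7.84 ± 0.48, the voltage-gated members to 46.4 ± 2.20 and 44.3 ± 2.17, and the auxiliary members to 6.55 ± 0.63 and 5.86 ± 0.61 CPM per kb in WT and ARID1A-KO (SD, n = 3).

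**Figure D3:**
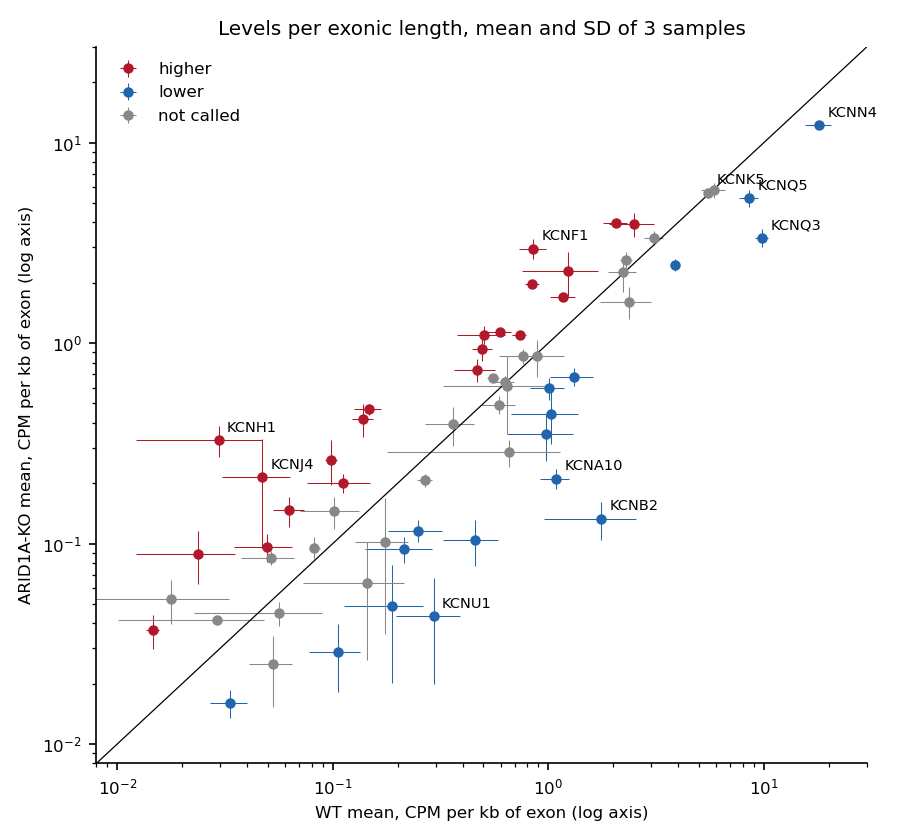
Mean level of 62 tested members in WT against ARID1A-KO, in CPM per kb of exon on 2 log axes, with bars for the SD of 3 samples and colours for higher, lower and not called. KCNN4 lies at the top right, and the members farthest from the line of equal levels are mostly those under 1 CPM per kb.

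Members that lie close together on a chromosome did not always move together. On chromosome 1, KCNA10 and KCNA2 lie 74.4 kb apart and were lower, while KCNA3, 40.2 kb from KCNA2, was higher. On chromosome 12, KCNA6 was called higher and KCNA1 lower at a distance of 58.8 kb. KCNJ11 and KCNC1 on chromosome 11 lie 345.5 kb apart and were both higher. KCNJ5 was higher and KCNJ1, 24.0 kb away, was not called.

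For each called member, the median log2 fold change of the other genes tested that start within 5 Mb was computed as a description. This median lay between -0.32 (KCNQ5) and 0.30 (KCNIP2) over the 40 called members, and it was 0.21 for KCNK9. For KCNH1, KCNF1, KCNB2 and KCNQ3 it was -0.03, -0.04, -0.12 and -0.10, beside their own log2 fold changes of 3.47, 1.80, -3.74 and -1.55. KCNQ5 itself had -0.70, and the part of its region in this value was not tested. KCNN1, which was not called at -0.56, also lay in a region with lower counts (-0.37).

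**Figure D4:**
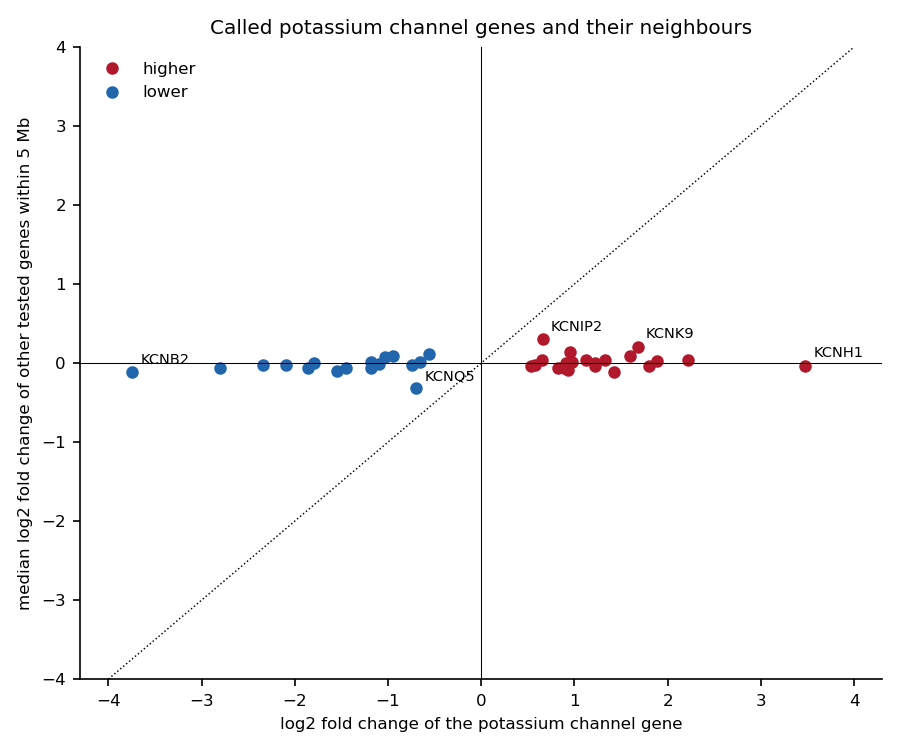
Log2 fold change of 38 called members on the horizontal axis against the median log2 fold change of the other tested genes within 5 Mb on the vertical axis. The members spread from -3.74 to 3.47 along the horizontal axis, while the medians of their neighbours stay between -0.32 and 0.30.

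Counts from the opposite strand made up a large part of the signal at some members, and this limits what unstranded counts can say about them. Of the 27 members with 30 or more such counts over the 6 samples, 8 had all of ARID1A-KO below WT, 5 had all of it above, and 14 overlapped. The higher ones were 18.5% of these members beside 17.1% of the 11451 genes with as many opposite-strand counts, the lower ones 29.6% beside 15.5%, and both together 48.1% beside 32.6%. For KCNAB1 98.7% and for KCNK12 98.0% of stranded counts were on the opposite strand, and for KCNJ13, KCNMB2, KCNS2 and KCNV2 all of them were. The fit on unstranded counts called KCNAB1 (log2 fold change -1.17, adjusted p = 0.0011), KCNV2 (-1.75, adjusted p = 0.0017), KCNK12 (-0.50, adjusted p = 0.0485) and KCNK7 (0.81, adjusted p = 0.0405), which had too few counts on their own strand to be tested. KCNQ1 also has an antisense gene, KCNQ1OT1, with 4104 counts over the 6 samples and a log2 fold change of 1.19, beside 28 counts of KCNQ1 itself. At KCNIP1 44.7% of the counts were on the opposite strand, where KCNMB1 and CTB-147C13.1 lie, and they were at 3.10 ± 0.59 CPM in WT and 0.679 ± 0.13 CPM in ARID1A-KO (SD, n = 3), without overlap and without a test.

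**Figure D5:**
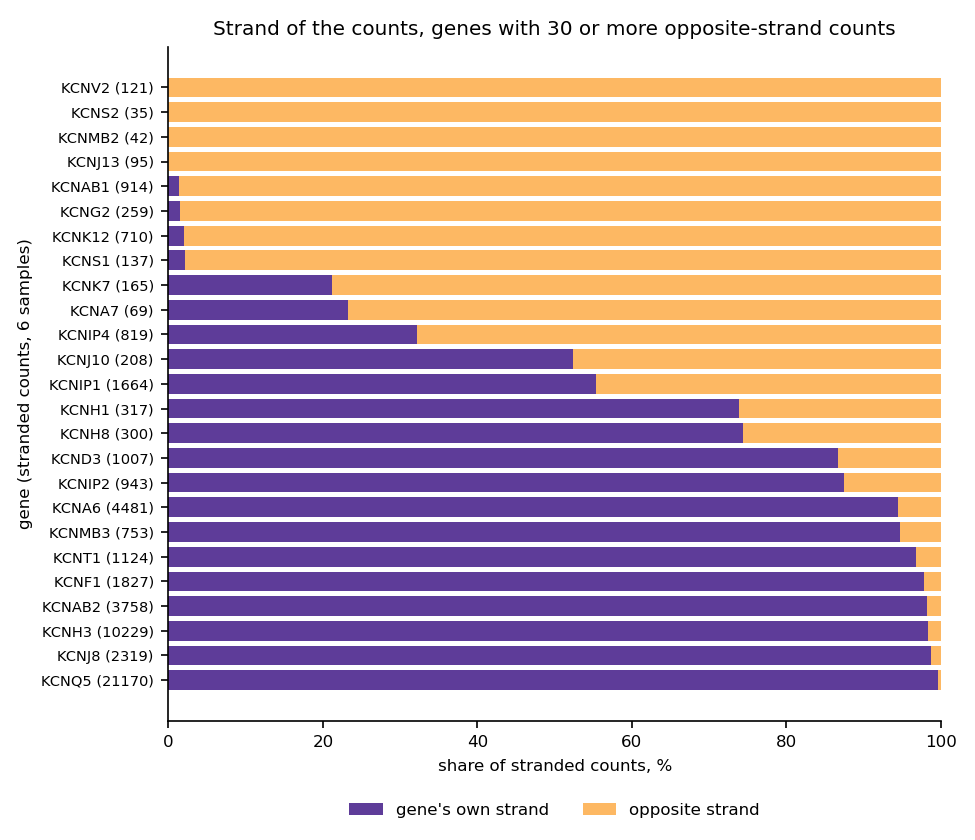
Share of stranded counts on the gene's own strand and on the opposite strand, in percent, for 25 of the 27 members with 30 or more opposite-strand counts, with the stranded counts of the 6 samples in parentheses. KCNJ13, KCNMB2, KCNS2 and KCNV2 have counts on the opposite strand only, while at KCNQ5 that strand is barely visible.

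RefSeq promoters of GRCh38.p14 (300 bases around the start) were matched by symbol for 69 of the 93 members. TGANTCA takes in the letters bound by AP-1 factors but allows any middle base, so not every match is such a site. It was found on either strand in 4 of these 69 promoters (5.8%), namely KCNA3, KCNJ4, KCNJ15 and KCNJ16, beside 7.76% of all 27305 promoters. None of the 13 matched promoters of lower members held it and 2 of the 17 of higher members did. GGGCGG, the core of a GC box, was found on either strand in 58.8% of promoters of higher members, 53.8% of lower, 83.3% of those not called and 47.6% of those not tested, beside 44.6% of all promoters. A match of 1 of these motifs cannot overlap a match of the other. The median number of CG dinucleotides in 300 bases was 25 for higher, 13 for lower, 28 for not called and 7 for not tested members, beside 14 over all promoters. These matches describe letters in a window and are not evidence of binding.

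Other genes of potassium transport, with symbols that do not start with KCN, were taken from a list of 34, of which 26 were tested, 9 were higher, 6 were lower and 11 were not called (57.7% called beside 36.2% of all genes). The HCN genes encode the pacemaker channels, which pass potassium and sodium and open on hyperpolarization. HCN2 was at 3.01, 3.96 and 3.57 CPM in WT and 12.6, 14.7 and 11.8 CPM in ARID1A-KO, without overlap and with a log2 difference of 1.89 (SE 0.14, adjusted p = 1.40e-05), and HCN4 was lower at -0.91 (adjusted p = 0.00159). ATP12A, a proton-potassium pump, was higher at 0.90 (adjusted p = 0.016) but not without WT replicate 3 (adjusted p = 0.0611) or WT replicate 5 (0.0510).

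Among the potassium-chloride cotransporters, SLC12A4 was higher at 0.64 (adjusted p = 9.62e-05), with neighbours at 0.55. SLC12A7 was lower at -0.27 (adjusted p = 0.0475), and this call was lost in 4 of the 6 fits with a sample left out, with adjusted p from 0.0611 without WT replicate 3 to 0.164 without ARID1A-KO replicate 3, and 0.151 without WT replicate 5 and 0.110 without ARID1A-KO replicate 4. DPP10, a partner of the KCND channels, was lower at -0.61 (adjusted p = 0.00373), and LRRC38, a partner of KCNMA1, was higher at 1.10 (adjusted p = 0.00433). The organelle channels TMEM175 and TMEM38A were higher at 0.53 (adjusted p = 0.0314) and lower at -0.55 (adjusted p = 0.0386). TMEM175 lost the call in all fits with a sample left out except that without ARID1A-KO replicate 3, with adjusted p of 0.0702, 0.0543 and 0.0931 without WT replicates 3, 4 and 5 and 0.118 and 0.0819 without ARID1A-KO replicates 4 and 5. TMEM38A lost it without WT replicates 3 and 5 (0.110 and 0.139) and without ARID1A-KO replicates 3 and 4 (0.113 and 0.131).

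Markers of other cell types moved beside these genes. Of 7 neuronal markers, 4 were higher (RBFOX3 at 3.44, SLC17A7, MAP2 and SYT1), 2 were lower (SNAP25 at -0.70 and GAD1) and STMN2 was not called, and their summed level was 5.92 to 7.27 CPM per kb in WT and 8.77 to 10.3 in ARID1A-KO. Muscle markers had 2 higher of 4 (MYOD1 and ACTC1 at 1.12), with sums of 0.546 to 0.604 and 1.03 to 1.26. Of the others, 1 was not called and had a negative log2 fold change, and MYH7 was not tested. Epithelial markers had 1 higher and 3 lower of 4, with sums of 196.6 to 226.3 and 138.6 to 144.7. The leukocyte marker PTPRC was lower (0.189 to 0.291 and 0.019 to 0.109 with CD74, which was not tested), and the endothelial marker CDH5 was not called (0.029 to 0.069 and 0.061 to 0.086), and PECAM1 was not analysed here. Their part in the changes of the channel genes was not tested.

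Single libraries stood apart for some members. ARID1A-KO replicate 5 was the sample farthest from its group's median for 38 of the 66 tested members, and WT replicate 4 for 29, beside 13 to 20 for the other 4 samples. This was not particular to the members. Over all genes tested, the SD of the log2 CPM difference was 0.289 between ARID1A-KO replicates 3 and 4. It was 0.405 and 0.396 for the pairs with ARID1A-KO replicate 5. In WT it was 0.352 between replicates 3 and 5, beside 0.401 and 0.404 for the pairs with replicate 4. Leaving out WT replicate 4 or ARID1A-KO replicate 5 gave 41 and 43 called members.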

How the data were processed

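The samples were 3 WT and 3 ARID1A-KO samples of AID-DivA cells, all untreated. Paired reads were aligned to GRCh37 by the authors with STAR (Roddy workflow), and the deposited featureCounts tables hold whole-number counts per gene that were not normalized. The labels name polyA RNA and the methods a stranded total RNA kit. The methods name gene annotation v29 lift 37, which was not checked against the tables. TPM and FPKM values deposited beside the counts were not used.

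Reverse-stranded counts were used, since forward-strand counts came to 5.83% to 6.15% of them. With 54512105 to 84088708 counts per sample, counting error matters mainly for genes with few counts. Counts were filtered with filterByExpr, scaled by TMM and compared with edgeR 4.0.16 (quasi-likelihood test, R 4.3.3) over all 6 samples without covariates, with Benjamini-Hochberg adjustment over all genes tested and calls at an adjusted p under 0.05. The SE of a log2 fold change was taken as its size divided by the square root of F. CPM for figures and single samples used the TMM factors, and levels between genes were divided by exonic length in kb. The fits were tested on simulated data. Alternatives were leaving out each sample, an adjusted p under 0.01, a block for the replicate number, DESeq2 1.42.0, RLE scaling, unstranded counts, and a minimum of 10 counts per sample or no minimum.

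Values in every sample are given for called members of 2-fold or more (up to 10 rises and 10 falls) and the 5 highest by CPM per kb, and further ones were added after their values were seen (KCNA6, KCNMA1, KCNJ15 and HCN2). Some members and listed genes enter the counts and sums but are not reported here by name or drawn. Members and lists were chosen with earlier results of these data known.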

Additional observations from a re-analysis of the deposited data

Results flagged for a closer look

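At 5 members, counts on the strand opposite to the gene, which lie outside the gene counts tested, were higher in every ARID1A-KO sample than in every WT sample. These were 18.5% of the members with enough such counts, close to the 17.1% of all genes with as many, so the number says nothing particular about the members. The opposite strand was not tested on its own. For KCNF1 the opposite strand had 0.2008 ± 0.102 CPM in ARID1A-KO and 0.0097 ± 0.0084 CPM in WT (SD, n = 3, as for the other 4). For KCNG2 it had 0.735 ± 0.201 CPM in ARID1A-KO and 0.482 ± 0.053 CPM in WT, and for KCNK7 0.4041 ± 0.070 and 0.226 ± 0.066 CPM. For KCNS1 the values were 0.3945 ± 0.026 and 0.258 ± 0.036 CPM, and for KCNJ8 0.1127 ± 0.038 and 0.0266 ± 0.026 CPM. KCNF1 was also higher on its own strand, KCNJ8 was not called there, and the other 3 were not tested there. In the opposite direction, 8 members had lower opposite-strand counts in every ARID1A-KO sample.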

How the results depend on the processing

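Of the 40 called members, 33 kept the call and the direction under every alternative with the threshold of 0.05 that gave a value, 7 lost the call under 1 or more of these, and none reversed. Of the 33, 31 also had an adjusted p under 0.01. The number called was 45 with unstranded counts, 40 with RLE, 37 with DESeq2, 35 with at least 10 counts in every sample, 47 without a filter, 31 at an adjusted p under 0.01, and 35 to 43 with a sample left out. With the replicate number as a block (replicate block), 44 members were called, including all 40, and 15 other potassium transport genes. Same-numbered samples had correlations of deviations of -0.177, 0.268 and 0.180, so the numbers were not taken to pair them, and WT replicate 3 correlated best with ARID1A-KO replicate 5. For the other potassium transport genes, 15 called, the number was 14 with unstranded counts, 14 with DESeq2, 10 at an adjusted p under 0.01 and 11 to 14 with a sample left out.

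Only members that were not called changed sign. KCNH8 had -0.050 with unstranded counts. With a sample left out, log2 fold changes ranged from -0.30 to 0.14 for KCNAB3, -0.065 to 0.28 for KCNH2, -0.11 to 0.072 for KCNH3, -0.63 to 0.28 for KCNJ10, -0.15 to 0.12 for KCNJ8, -0.014 to 0.064 for KCNK5, -0.36 to 0.38 for KCNMA1 and -0.021 to 0.12 for KCNMB4. The cause was not tested. Depth limits the 27 members not tested and those with a few counts per sample, such as KCNK10, KCNH4 and KCNE4.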
